A study of Mus musculus with 30 samples.

Results

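Mx1 and Mx2, the pair of mouse Mx GTPases, were followed across 30 whole B16 melanoma tumors taken 8 days after engraftment. The members were the rows of the count table whose Ensembl identifiers belong to these genes, which gave 2 of 39676 genes, both of them among the 15926 genes tested, whose counts averaged 10 or more per tumor. The 10 B16-GFP, 10 B16-IFNA4 and 10 B16-IFNA9 tumors grew under the skin of young adult female C57BL/6 mice from B16-F10 cells, a melanoma line of the same strain. All 3 lines carried herpes simplex virus glycoprotein B with a cyan fluorescent protein and firefly luciferase with puromycin resistance, each brought in by a retrovirus. B16-IFNA4 and B16-IFNA9 cells also carried mouse IFNα4 or IFNα9 ahead of enhanced GFP under a viral long terminal repeat promoter, and B16-GFP cells carried the vector with GFP alone. Each tumor type came from 1 transduced line, so the IFNα subtype, its level of release and any other difference between the lines cannot be told apart. The labels name the tumors of a type as biological replicates and give no treatment.

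The Mx proteins are large GTPases of the dynamin superfamily that assemble into rings and block early steps of virus replication. Mouse Mx1 protein acts in the nucleus and is known for resistance to influenza and related viruses, and Mx2 protein acts in the cytoplasm, mainly against rhabdoviruses such as vesicular stomatitis virus. IFN-I binds the receptor IFNAR1/IFNAR2, the kinases JAK1 and TYK2 then pass the signal on, and a transcription factor complex that holds IRF9 switches on both genes. Uninduced cells make little Mx RNA, which has made it a common readout of IFN-I. C57BL/6 and many other laboratory strains carry defective alleles of both genes, so the counts below speak of RNA and not of working protein.

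In GENCODE M21, an annotation of GRCm38, Mx1 (ENSMUSG00000000386.14) lay on the minus strand at chr16:97447035-97462907 and Mx2 (ENSMUSG00000023341.14) on the plus strand at chr16:97535308-97560900, with 72.4 kb between them. No annotated gene overlapped either. GENCODE listed Mx1 as protein coding with 10 transcripts and Mx2 as a polymorphic pseudogene with 5, and RefSeq listed both as transcribed pseudogenes. The open frames of the annotated transcripts differed in length, and the sequences at the early stops are shown because they mark where the frame ends in the shorter transcripts. Mx1-201 held an open frame of 627 codons, and Mx1-205, annotated for nonsense-mediated decay, stopped after 309 codons in exon 9 of 11, at chr16:97451528-97451530. Mx2-201 held 655 codons, and Mx2-202, the transcript annotated as the polymorphic pseudogene, stopped after 423 codons in exon 11 of 14, at chr16:97555977-97555979. The stop codon is in capitals in both windows, written 5′ to 3′ with 60 bases before the stop and 18 after it. The windows are cut from the spliced transcripts, and that of Mx2-202 spans the joint of exons 10 and 11.
Mx1-205: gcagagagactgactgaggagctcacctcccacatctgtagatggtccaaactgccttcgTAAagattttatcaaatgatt
Mx2-202: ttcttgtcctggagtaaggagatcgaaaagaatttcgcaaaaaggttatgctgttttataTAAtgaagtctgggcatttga

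The annotated Mx2 transcripts parted at the joint of exons 10 and 11, where both the last base of exon 10 and the first base of exon 11 differed. Exon 10 ended at base 97552063 in Mx2-201 and 97552066 in Mx2-202, and exon 11 began at base 97555959 and 97555961. The 30 bases on each side of the joint follow, with the bases of exon 11 in capitals.
Mx2-201: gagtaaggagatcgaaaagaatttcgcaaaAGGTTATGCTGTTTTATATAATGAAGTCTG
Mx2-202: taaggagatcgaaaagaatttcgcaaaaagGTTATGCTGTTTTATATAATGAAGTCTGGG
The annotated coding sequence of Mx2-202 had 1969 bases, which leaves 1 base over after division into codons. The deposited values are counts per gene, so they do not say which of these transcripts the tumors made.

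The longest frames of Mx1 and Mx2 were 80.5% identical over 1827 aligned bases (1470 identical). The longest identical run had 140 bases, and it is shown because reads of 50 bases that lie within it cannot be assigned to either gene. It stands in capitals in bases 337 to 524 of the Mx1 frame, and the same capitals fall within bases 418 to 605 of the Mx2 frame.
Mx1: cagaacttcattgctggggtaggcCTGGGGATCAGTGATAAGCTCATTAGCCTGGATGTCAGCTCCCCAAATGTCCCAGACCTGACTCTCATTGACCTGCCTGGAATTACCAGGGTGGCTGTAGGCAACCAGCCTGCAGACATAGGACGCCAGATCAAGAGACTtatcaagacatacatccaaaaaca
Of the 4115 distinct stretches of 50 bases in the Mx1 transcripts, 161 (3.91%) also occurred in another gene, 159 of them in Mx2. Of the 3632 stretches of Mx2, 159 (4.38%) occurred elsewhere, all in Mx1. How reads that fit both genes were counted is not given in the sources used here, so a small part of each count is uncertain.

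The libraries held 14598517 to 19788383 counts each. The labels were checked by the transgenes, which had 81 to 188 counts of Ifna4 in the B16-IFNA4 tumors and 55 to 148 counts of Ifna9 in the B16-IFNA9 tumors, and 0 counts in all other tumors. B16-GFP tumor 7 stood apart from the other B16-GFP tumors, with the lowest total of all 30, the lowest scaling factor, 0.768, the lowest summed leukocyte markers of its type and the highest summed melanocyte markers. In whole tumors, fewer cells of a type and less RNA per cell cannot be told apart.

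Both genes were lowest in B16-GFP, intermediate in B16-IFNA9 and highest in B16-IFNA4 tumors. Levels are in CPM, a count relative to the size of its library, with library sizes scaled by the trimmed mean of M-values (TMM). Mx1 in B16-GFP tumors ranged from 4.73 CPM in tumor 7 over a median of 18.3 to 38.6 in tumor 5 (mean 20.2 ± 9.81, SD, n = 10). In B16-IFNA9 tumors it ranged from 129 over 169 to 202 CPM (166 ± 21.2, SD, n = 10), and in B16-IFNA4 tumors from 253 over 419 to 469 CPM (386 ± 75.0, SD, n = 10). None of these ranges touched: the lowest B16-IFNA9 tumor was 3.34-fold above the highest B16-GFP tumor, and the lowest B16-IFNA4 tumor was 1.25-fold above the highest B16-IFNA9 tumor.

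Mx2 kept the same order at lower levels. In B16-GFP tumors it ranged from 2.68 CPM in tumor 7 over a median of 9.63 to 18.7 in tumor 5 (9.63 ± 4.39, SD, n = 10). In B16-IFNA9 tumors the range was 44.9 over 53.4 to 59.4 CPM (52.7 ± 5.12, SD, n = 10), and in B16-IFNA4 tumors 75.5 over 109 to 125 CPM (106 ± 15.4, SD, n = 10). The ranges of Mx2 did not touch either, with gaps of 2.41-fold and 1.27-fold between neighbours in this order. The same tumors held the extremes of both genes in B16-GFP (tumors 7 and 5) and in B16-IFNA4 (tumors 8 and 7), and in B16-IFNA9 tumors only the highest, tumor 4, was shared.

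**Figure D1:**
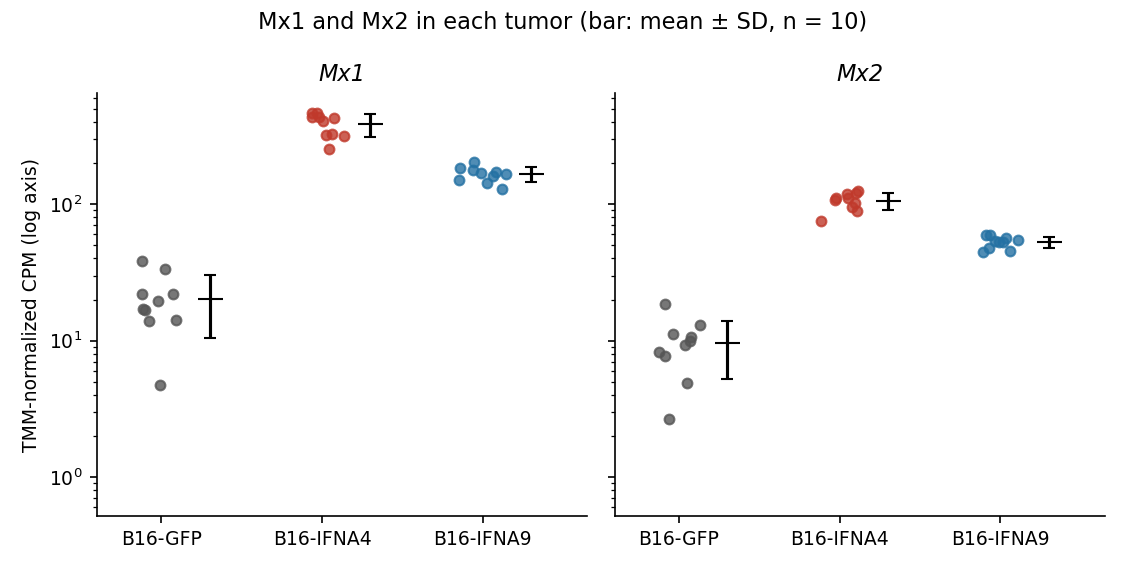
TMM-scaled CPM of Mx1 (left) and Mx2 (right) on a log axis, 1 point per tumor with a bar for the mean ± SD (n = 10 per type). The lowest B16-IFNA4 tumor (253 CPM of Mx1, 75.5 CPM of Mx2) lies above the highest B16-IFNA9 tumor (202 and 59.4 CPM), and the lowest point in each B16-GFP column is tumor 7.

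Relative to the mean, the B16-GFP tumors varied most and the B16-IFNA9 tumors least. The coefficient of variation of Mx1 was 48.5% in B16-GFP, 19.5% in B16-IFNA4 and 12.8% in B16-IFNA9 tumors, and that of Mx2 was 45.6%, 14.5% and 9.71%. Per kilobase of annotated exon, Mx1 averaged 5.35, 43.8 and 102 CPM per kb in B16-GFP, B16-IFNA9 and B16-IFNA4 tumors, and Mx2 2.66, 14.6 and 29.3 CPM per kb. On that scale Mx1 stood above 49.6% of 15905 genes in B16-GFP tumors, above 91.4% in B16-IFNA9 and above 96.3% in B16-IFNA4 tumors, and Mx2 above 34.5%, 75.3% and 86.9%.

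Both genes were higher with IFNα4. In the comparison of B16-IFNA4 with B16-GFP tumors, the log2 fold change of Mx1 was 4.25 (SE 0.23), a 19.0-fold rise with a 95% interval of 13.8 to 26.2 (adjusted p = 1.01e-15 in the quasi-likelihood test of edgeR, adjusted over the 15926 genes by Benjamini-Hochberg). That of Mx2 was 3.45 (SE 0.19), a 10.9-fold rise with an interval of 8.31 to 14.4 (adjusted p = 3.32e-15 in the same edgeR test). In this comparison 65.4% of all genes passed the adjusted threshold of 0.05, 31.3% of all genes being higher and 34.1% lower in B16-IFNA4 tumors, so a call by itself says little here. The size of the rise set both genes apart from most: Mx1 had rank 45 and Mx2 rank 118 among the 15926 log2 fold changes. In 8.5% of all genes, as in Mx1 and Mx2, every B16-IFNA4 tumor was above every B16-GFP tumor, and in 10% every one was below.

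Both genes were also higher with IFNα9, by a smaller factor. B16-IFNA9 tumors had 8.17-fold more Mx1 than B16-GFP tumors (log2 fold change 3.03, SE 0.21, interval 6.03 to 11.1, adjusted p = 1.32e-12 in edgeR's quasi-likelihood test) and 5.44-fold more Mx2 (log2 fold change 2.44, SE 0.19, interval 4.18 to 7.09, adjusted p = 6.25e-12 in the same edgeR test). The background was 55.7% of all genes past the threshold, 26.9% of all genes being higher and 28.9% lower. In 4.44% of all genes, both Mx genes among them, every B16-IFNA9 tumor was above every B16-GFP tumor, and in 3.35% every one was below. Mx1 ranked 110 and Mx2 ranked 235 among all log2 fold changes. Without B16-GFP tumor 7 the log2 fold changes of Mx1 were 4.15 in B16-IFNA4 and 2.92 in B16-IFNA9 against B16-GFP tumors, and those of Mx2 were 3.36 and 2.35.

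The tumor types that expressed an IFNα differed from each other. Mx1 was 2.33-fold lower in B16-IFNA9 than in B16-IFNA4 tumors (log2 fold change -1.22, SE 0.20, interval 1.75 to 3.09, adjusted p = 7.00e-05 in edgeR's quasi-likelihood test), and Mx2 was 2.01-fold lower (log2 fold change -1.01, SE 0.18, interval 1.57 to 2.57, adjusted p = 0.000143 in the same edgeR test). Here 17.8% of all genes passed the threshold and 7.25% were lower, and in 0.741% every B16-IFNA9 tumor was below every B16-IFNA4 tumor, as in both Mx genes. Counted from the largest decrease, Mx1 ranked 111 and Mx2 ranked 236 of 15926. The mean level in B16-IFNA9 tumors came to 43% of that in B16-IFNA4 tumors for Mx1 and to 49.8% for Mx2. The study singled out both genes on these same tumors, so their direction is not independent evidence of an IFN-I response. The comparisons with B16-GFP share the control tumors.

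Mx1 and Mx2 did not change to the same degree, as the ratio of their counts within each tumor shows. In B16-GFP tumors there were 1.57 to 2.88 counts of Mx1 per count of Mx2 (median 2.08), in B16-IFNA4 tumors 3.13 to 4.03 (median 3.69) and in B16-IFNA9 tumors 2.37 to 3.88 (median 3.22). All 10 B16-IFNA4 tumors and 7 of 10 B16-IFNA9 tumors lay above every B16-GFP tumor. As the difference in log2 CPM, which includes the prior count of 2, the ratio was 1.04 ± 0.27 in B16-GFP, 1.85 ± 0.13 in B16-IFNA4 and 1.65 ± 0.21 in B16-IFNA9 tumors (SD, n = 10).

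The ratio rose by 0.81 (SE 0.09) from B16-GFP to B16-IFNA4 tumors, which is a 1.75-fold larger rise of Mx1 than of Mx2 (two-sided permutation test, p = 1e-05, the smallest that 100000 resamples can give, adjusted p = 3e-05 over the 3 comparisons). From B16-GFP to B16-IFNA9 tumors it rose by 0.61 (SE 0.11), or 1.52-fold (permutation p = 0.00011, adjusted p = 0.000165). Between the IFNα-expressing types it was 0.20 lower in B16-IFNA9 tumors (SE 0.08, 1.15-fold, permutation p = 0.0164, adjusted p = 0.0164), and these types overlapped, with 4 of 10 B16-IFNA9 tumors below every B16-IFNA4 tumor.

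**Figure D2:**
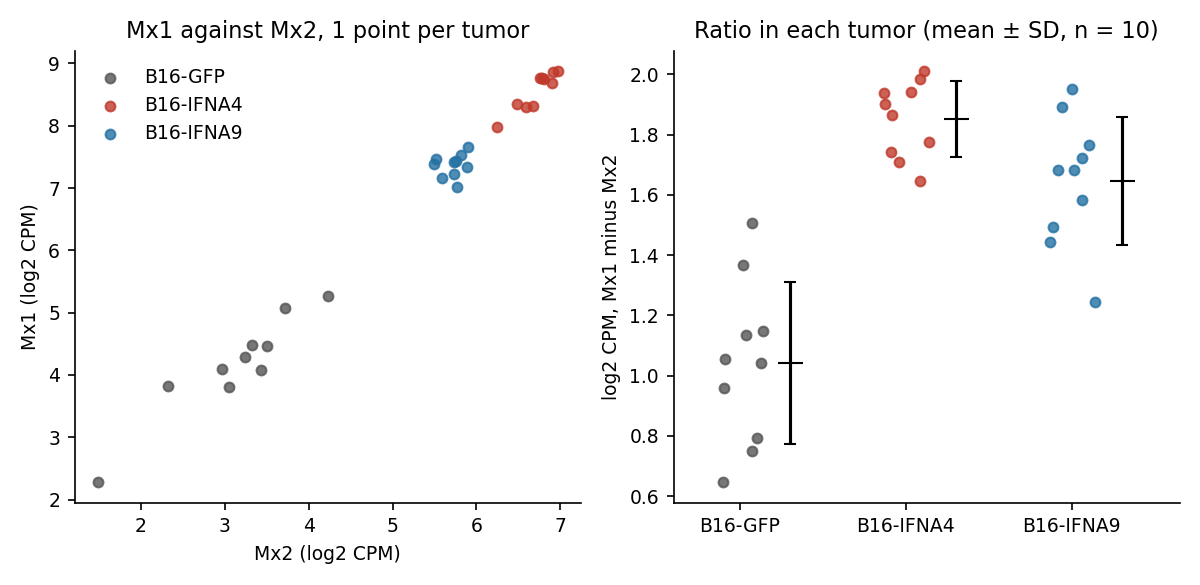
Left, log2 CPM (prior count 2) of Mx1 against Mx2, 1 point per tumor. Right, the log2 ratio of Mx1 to Mx2 in each tumor with the mean ± SD (n = 10 per type): the B16-GFP tumors average 1.04, and the B16-IFNA4 and B16-IFNA9 tumors average 1.85 and 1.65 and overlap each other.

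Other antiviral interferon-stimulated genes (ISGs) rose with Mx1 and Mx2. Of a list of 36 genes that encode RNA-binding, nucleotide-making and membrane-restricting antiviral proteins, 33 could be analysed. In B16-IFNA4 against B16-GFP tumors edgeR's quasi-likelihood test called 32 of 33 higher and 0 lower, beside 31.3% and 34.1% of all genes, and the median log2 fold change was 2.36 against 0.01 over all genes. In B16-IFNA9 against B16-GFP tumors 32 were again higher, beside 26.9% of all genes, with a median of 2.03. The gene that did not pass in either comparison was Ifitm2, which encodes an endosomal restriction protein, with log2 fold changes of -0.15 (adjusted p = 0.325) and -0.21 (adjusted p = 0.185).

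Mx1 stood near the upper end of these genes and Mx2 below it. In B16-IFNA4 against B16-GFP tumors 1 of the 33 exceeded Mx1, namely Ifit3b with a log2 fold change of 4.36, and 4 exceeded Mx2. Ifit3b, a member of the IFIT family of RNA-binding proteins, has a near-identical copy in Ifit3, so reads may be split between them. In B16-IFNA9 against B16-GFP tumors 5 of 33 exceeded Mx1 and 13 exceeded Mx2.

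Between B16-IFNA9 and B16-IFNA4 tumors both Mx genes had a larger decrease than each of the 33 listed genes. Of the list 13 were called lower and 0 higher, beside 7.25% and 10.5% of all genes, and the median log2 fold change was -0.33 against -0.01 over all genes. Closest to Mx2 (-1.01) came Oasl1 at -0.92, a gene of the oligoadenylate synthetase-like family, whose interval overlapped those of both Mx genes. Mx1 and Mx2 kept this place within the list under the main settings and all 37 alternatives run. Outside the list, Ifit1bl1 of the IFIT family (-1.63) had a larger decrease than both Mx genes. Trim30b of the TRIM30 family (-1.08) had a larger one than Mx2, and the intervals of these genes overlapped those of Mx1 and Mx2. Without B16-GFP tumor 7 the number of listed genes called was 20 in place of 13, and with scaling by library totals it was 9.

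**Figure D3:**
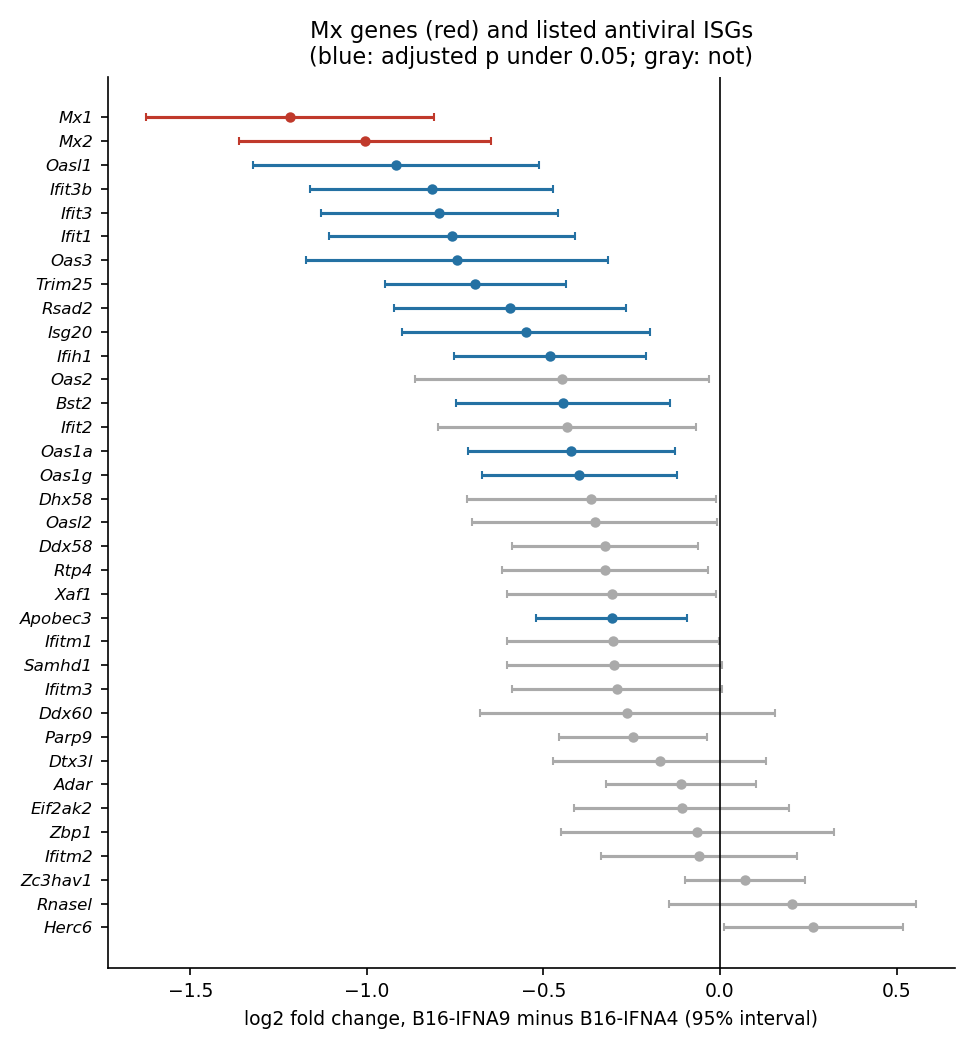
Log2 fold changes with 95% intervals in B16-IFNA9 against B16-IFNA4 tumors for Mx1 and Mx2 (red) and the 33 listed antiviral ISGs (blue, adjusted p under 0.05, and gray, not), in order of size. Mx1 (-1.22) and Mx2 (-1.01) lie farthest to the left, ahead of Oasl1 (-0.92), and the intervals of neighbours overlap.

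Most genes of the IFN-I signaling pathway rose too. With IFNα4 Usp18 had a larger log2 fold change than Mx2, and Irf7 had nearly the same one, 3.44 beside 3.45. Whether these genes differ from Mx2 was not tested. Of 15 listed receptor, kinase, transcription factor and feedback genes, 13 could be analysed. In B16-IFNA4 against B16-GFP tumors 10 were higher and 0 lower (median log2 fold change 0.64, beside 31.3% and 34.1% of all genes), in B16-IFNA9 against B16-GFP tumors 10 were higher and 1 lower (median 0.65, beside 26.9% and 28.9%), and in B16-IFNA9 against B16-IFNA4 tumors 1 was higher and 4 were lower (median -0.15, beside 10.5% and 7.25%). The largest rise with IFNα4 was that of Usp18, a feedback inhibitor that acts at IFNAR2, with a log2 fold change of 3.72, and the smallest value was that of the phosphatase gene Ptpn11 at 0.05 (adjusted p = 0.419).

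Of the receptor genes, Ifnar2 rose with both IFNα subtypes and Ifnar1 did not pass. Ifnar1 had log2 fold changes of 0.12 in B16-IFNA4 and -0.03 in B16-IFNA9 against B16-GFP tumors (adjusted p = 0.22 and 0.739 in edgeR's quasi-likelihood test), and Ifnar2 rose by 0.53 and 0.33 on the log2 scale. Irf9, which encodes the DNA-binding subunit of the complex that drives Mx transcription, rose by 1.71 and 1.43 on the log2 scale. Between B16-IFNA9 and B16-IFNA4 tumors it did not pass the threshold, with a log2 fold change of -0.28 (95% interval -0.50 to -0.05, adjusted p = 0.0784). The Irf9 levels nearly touched without overlap, with at most 159.4 CPM in B16-IFNA9 and at least 160.0 CPM in B16-IFNA4 tumors. Of all genes, 0.741% were lower in B16-IFNA9 tumors without overlap.

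Irf7 and Usp18, which like Mx1 and Mx2 are induced by IFN-I, did differ between the IFNα-expressing types. Irf7, a transcription factor that amplifies IFNα production, rose by 3.44 and 2.49 against B16-GFP tumors and was lower in B16-IFNA9 than in B16-IFNA4 tumors by a log2 fold change of -0.96 (adjusted p = 0.000738 in edgeR's quasi-likelihood test). Usp18 rose by 2.98 with IFNα9 and was lower there than with IFNα4, at -0.74 (adjusted p = 0.00212). Irf1, a transcription factor that IFN-γ induces strongly, was the 1 listed gene higher in B16-IFNA9 tumors, at 0.85 (adjusted p = 0.00795).

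Other GTPases of the dynamin superfamily, which share the fold of the Mx proteins and act in membrane fission and fusion, were read beside them. The list held dynamin, mitofusin, Opa1 and atlastin genes and no guanylate-binding protein genes, so it does not stand for the whole superfamily. Of 10 listed, 6 were tested. In edgeR's quasi-likelihood test 0 were higher in B16-IFNA4 against B16-GFP, B16-IFNA9 against B16-GFP and B16-IFNA9 against B16-IFNA4 tumors, beside 31.3%, 26.9% and 10.5% of all genes, and 0 were higher at an unadjusted p under 0.05. Lower were 1, 3 and 1 of the 6, beside 34.1%, 28.9% and 7.25% of all genes. Opa1, which fuses the inner mitochondrial membrane, fell by 0.53 in B16-IFNA4 and by 0.49 in B16-IFNA9 tumors on the log2 scale. Mfn2 and Mfn1, which fuse the outer membrane, fell by 0.38 and 0.23 in B16-IFNA9 tumors, and Mfn2 was lower there than in B16-IFNA4 tumors by 0.37. The largest log2 fold change in B16-IFNA4 against B16-GFP tumors was 0.14, for the endocytic dynamin gene Dnm2 (adjusted p = 0.154).

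Genes that lie near Mx1 and Mx2 on chromosome 16 were read within 500 kb of either gene. Of 17 annotated genes there, 6 could be analysed and 5 passed the filter on low counts. In B16-IFNA4 against B16-GFP tumors 4 of 5 were higher, with log2 fold changes of 1.75 for Fam3b, 1.62 for Dscam, 0.56 for B230307C23Rik and 0.21 for Prdm15, beside 31.3% of all genes, and Ripk4 had 0.49 (adjusted p = 0.0687). In B16-IFNA9 against B16-GFP tumors Dscam (2.59) and Fam3b (1.41) were higher, 2 of 5 beside 26.9% of all genes, and scaling by library totals made this 4 of 5.

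Fam3b, which encodes a secreted cytokine-like protein, lies between Mx1 and Mx2 and had a low level, with medians of 1.31, 4.06 and 2.93 CPM in B16-GFP, B16-IFNA4 and B16-IFNA9 tumors. Dscam, which encodes a neuronal adhesion molecule, had medians of 0.29, 0.823 and 1.26 CPM. Its counts were at most 10 in any B16-GFP tumor, with a median of 4.5, against medians of 14 and 21.5 in B16-IFNA4 and B16-IFNA9 tumors, so it passed the filter on low counts only through the types where it was high and its calls are no support for a difference. In B16-IFNA9 against B16-IFNA4 tumors 0 of the 5 neighbours passed edgeR's adjusted threshold, 1 was higher at an unadjusted p under 0.05, and 1 passed in DESeq2, beside 17.8% of all genes past edgeR's threshold, so a count of 0 of 5 is near the background. Dscam had a log2 fold change of 0.97 there (adjusted p = 0.0659), the opposite direction to Mx1 and Mx2.

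Markers of immune and melanocytic cells moved with the same contrasts. All 5 leukocyte markers were higher in both IFNα-expressing types than in B16-GFP tumors, and 1 of 5 was lower in B16-IFNA9 than in B16-IFNA4 tumors, beside 31.3% and 26.9% of all genes higher and 7.25% lower. Their summed level was 158 to 529 CPM in B16-GFP, 854 to 1764 CPM in B16-IFNA4 and 611 to 1183 CPM in B16-IFNA9 tumors, an order that Mx1 and Mx2 share. Among 5 macrophage and monocyte markers 4 were higher in both comparisons with B16-GFP, with summed levels of 151 to 654, 960 to 1713 and 638 to 1172 CPM. Most of that sum in B16-IFNA4 tumors came from the monocyte gene Ly6c2, with means of 88.9, 843 and 454 CPM, while Csf1r, which encodes the receptor for a macrophage growth factor, had 160, 131 and 155 CPM and did not pass in either comparison. The 3 NK cell markers were higher in both as well, with 2.32 to 18.9, 68.4 to 201 and 37.7 to 133 CPM.

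The 3 melanocyte markers that could be analysed, Tyr, Tyrp1 and Mitf, were lower in both IFNα-expressing types, with summed levels of 7224 to 22850, 2160 to 3635 and 3371 to 8928 CPM in B16-GFP, B16-IFNA4 and B16-IFNA9 tumors. All 3 were detected in tumors of every type. Of the T cell markers 5 of 5 and 4 of 5 were higher in B16-IFNA4 and B16-IFNA9 than in B16-GFP tumors, of the plasmacytoid dendritic cell markers 3 and 2 of 3, of the fibroblast markers 1 and 1 of 3, and of the keratinocyte markers 1 and 0 of 2, beside 31.3% and 26.9% of all genes, so the fibroblast and keratinocyte counts are near the background. Of 3 neutrophil markers 1 was higher and 2 were lower in both. Of 3 endothelial markers 1 was higher and 2 were lower in B16-IFNA4 tumors and 2 were lower in B16-IFNA9 tumors, and of 3 muscle markers 0 and 2 were lower, beside 34.1% and 28.9% of all genes lower. In B16-IFNA9 against B16-IFNA4 tumors the markers called lower were 3 of 3 endothelial, 2 of 3 plasmacytoid dendritic cell, 2 of 3 neutrophil, 2 of 3 muscle, 2 of 5 macrophage and monocyte, 1 of 3 NK cell and 0 of 5 T cell markers, and 2 of 3 melanocyte markers were higher, beside 7.25% of all genes lower and 10.5% higher. No marker was at 0 in all tumors. The part of these cell types in the Mx levels was not tested.

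Within a tumor type, Mx1 and Mx2 went together in B16-GFP and B16-IFNA4 tumors. In B16-GFP tumors Pearson's r of their log2 CPM was 0.945 (permutation p = 3e-05, adjusted p = 0.00111) and Spearman's rho 0.855 (permutation p = 0.00288, adjusted p = 0.0227). In B16-IFNA4 tumors r was 0.928 (permutation p = 0.00026, adjusted p = 0.00321) and rho 0.855 (permutation p = 0.00307, adjusted p = 0.0227). In B16-IFNA9 tumors r was 0.20 (permutation p = 0.579, adjusted p = 0.63) and rho 0.285 (permutation p = 0.426, adjusted p = 0.478). The B16-IFNA9 tumors also had the narrowest spread of both genes, and whether the correlations differ between types was not tested.

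Without the 2 tumors farthest from the median of Mx2, r was 0.897 in B16-GFP, 0.849 in B16-IFNA4 and 0.555 in B16-IFNA9 tumors (n = 8). At this size 0 of the 37 relations examined in the family passed the adjusted threshold of the permutation test and 8 had an unadjusted p under 0.05, and the part of the smaller number of tumors in this loss was not tested. With all tumors 14 of the 37 relations passed by Pearson's r and 9 by Spearman's rho: 7 of 11 and 3 of 11 in B16-GFP, 7 of 13 and 6 of 13 in B16-IFNA4, and 0 of 13 by either measure in B16-IFNA9 tumors, where 0 had an unadjusted permutation p under 0.05 either. Without B16-GFP tumor 7 the number by Pearson's r was 8 in place of 14, and Mx1 with Mx2 in B16-GFP tumors kept r = 0.866 (adjusted p = 0.00888 in the permutation test).

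Irf9 followed both genes in the same types. With Mx1 its r was 0.906 in B16-GFP (permutation p = 0.00234, adjusted p = 0.011) and 0.894 in B16-IFNA4 tumors (permutation p = 0.00062, adjusted p = 0.00459), with rho of 0.782 (permutation p = 0.0108, adjusted p = 0.0444) and 0.879 (permutation p = 0.00165, adjusted p = 0.0227). With Mx2 it was 0.932 (permutation p = 0.0002, adjusted p = 0.00321) and 0.718 (permutation p = 0.018, adjusted p = 0.0475), with rho of 0.855 (permutation p = 0.00269, adjusted p = 0.0227) and 0.588 (permutation p = 0.08, adjusted p = 0.187). In B16-IFNA9 tumors r was 0.498 with Mx1 and -0.183 with Mx2 (permutation p = 0.142 and 0.609, adjusted p = 0.195 and 0.644). Without the 2 farthest tumors the r of Irf9 with Mx1 was 0.451, 0.736 and 0.136 in B16-GFP, B16-IFNA4 and B16-IFNA9 tumors, and that with Mx2 was 0.801, 0.304 and -0.13.

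The leukocyte score, the mean log2 CPM of the 5 leukocyte markers, went with both Mx genes in B16-IFNA4 tumors. There r was 0.882 with Mx1 (permutation p = 0.00052, adjusted p = 0.00459) and 0.814 with Mx2 (permutation p = 0.00494, adjusted p = 0.0194), rho was 0.879 (permutation p = 0.00125, adjusted p = 0.0227) and 0.782 (permutation p = 0.0108, adjusted p = 0.0444), and without the 2 farthest tumors r was 0.763 and 0.544. In B16-GFP tumors r was 0.742 and 0.641 (permutation p = 0.0266 and 0.0574, adjusted p = 0.0616 and 0.101) and rho 0.394 and 0.345. These relations rested on tumors 7 and 2, without which r was -0.0267 and -0.0561. In B16-IFNA9 tumors the signs parted, with r = 0.605 for Mx1 and -0.43 for Mx2 (permutation p = 0.0655 and 0.213, adjusted p = 0.108 and 0.27), and neither passed.

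The level of the transgene was not shown to go with either gene. In B16-IFNA4 tumors r with Ifna4 was 0.452 for Mx1 and 0.60 for Mx2 (permutation p = 0.191 and 0.0701, adjusted p = 0.252 and 0.108), rho was -0.0545 and 0.236, and without the 2 farthest tumors r was -0.214 and -0.142. In B16-IFNA9 tumors r with Ifna9 was -0.174 for Mx1 and 0.629 for Mx2 (permutation p = 0.632 and 0.0515, adjusted p = 0.65 and 0.0954), rho was -0.285 and 0.491, and without the 2 farthest tumors r was 0.00255 and 0.614. The transgenes had at most 188 counts per tumor, and the depth limits how closely such a relation can be measured.

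The genes whose pattern was most like that of each Mx gene were ranked by the mean of the 3 Pearson correlations within the types (10 tumors each), as a description without a test. The points share libraries and scaling, and genes are not independent of each other. For Mx1 these were Ifit1bl1, a relative of Ifit1, with a mean r of 0.932, Trim30b of the TRIM30 family with 0.929, Slfn8 of the Schlafen family with 0.916, Trim21, a cytosolic antibody receptor and ubiquitin ligase, with 0.909, and Xaf1, an antagonist of an apoptosis inhibitor, with 0.908. For Mx2 they were Usp18 with 0.859, Ifit1, which binds RNA that lacks the host cap methylation, with 0.771, Rsad2, the viperin gene, with 0.77, Ddx58, the RNA sensor RIG-I, with 0.754, and Oas2, an oligoadenylate synthetase, with 0.729. The lists had no gene in common.

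Since the partners were chosen by their mean r over these types, a high r is set by the choice. All 5 partners of each gene had their lowest r in B16-IFNA9 tumors, and differences between types were not tested. The r of Mx1 with its first partner was 0.926, 0.953 and 0.918 in B16-GFP, B16-IFNA4 and B16-IFNA9 tumors, and with the fifth 0.969, 0.988 and 0.768. The r of Mx2 with Usp18 was 0.943, 0.925 and 0.709, and with Oas2 0.952, 0.809 and 0.425. Mx1 was the gene of rank 11 in the order of likeness to Mx2, and Mx2 had rank 383 of 15925 in the order of likeness to Mx1. The number of genes with r over 0.9 was 98, 74 and 50 for Mx1 and 98, 35 and 1 for Mx2 in B16-GFP, B16-IFNA4 and B16-IFNA9 tumors.

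The antiviral list had its lowest median r in B16-IFNA9 tumors with both genes. The median r with Mx1 was 0.827 in B16-GFP, 0.847 in B16-IFNA4 and 0.629 in B16-IFNA9 tumors, and with Mx2 0.835, 0.812 and -0.00832. The median r over all genes was 0.0249, -0.0258 and -0.00783 with Mx1 and 0.0524, -0.0209 and -0.0193 with Mx2. In B16-IFNA9 tumors 24 of 33 listed genes had a positive r with Mx1 and 16 of 33 with Mx2. The range of Mx2 in those tumors was 1.32-fold from the lowest to the highest, against 1.57-fold for Mx1, 1.66-fold for Mx2 in B16-IFNA4 tumors and 6.96-fold for Mx2 in B16-GFP tumors, and the part of that narrow range in the low correlations was not tested.

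**Figure D4:**
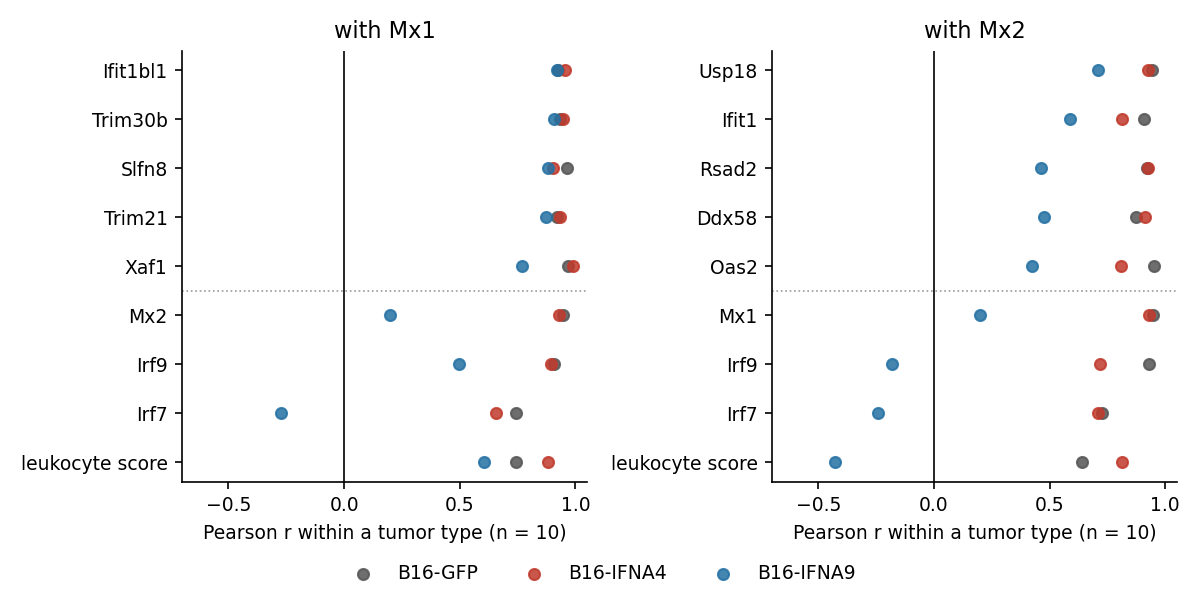
Pearson's r of log2 CPM (n = 10 tumors per type) of Mx1 (left) and Mx2 (right) with the 5 genes most like each (above the dotted line) and with the other Mx gene, Irf9, Irf7 and the leukocyte score (below it). The B16-IFNA9 point lies farthest to the left in every row of both panels: the 5 partners of Mx1 run from 0.768 to 0.918 in those tumors and the 5 partners of Mx2 from 0.425 to 0.709.

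The 5 partners closest to Mx1 were higher in both IFNα-expressing types than in B16-GFP tumors, and 3 of the 5 were lower in B16-IFNA9 than in B16-IFNA4 tumors, beside 31.3% and 26.9% of all genes higher and 7.25% lower. Ifit1bl1 had medians of 2.58, 65.8 and 206 CPM in B16-GFP, B16-IFNA9 and B16-IFNA4 tumors, with log2 fold changes of 6.09 in B16-IFNA4 and 4.46 in B16-IFNA9 against B16-GFP tumors, and -1.63 between B16-IFNA9 and B16-IFNA4 tumors (adjusted p = 2.57e-06 in edgeR's quasi-likelihood test). Trim30b had 3.53, 2.45 and -1.08 (adjusted p = 0.000734 for the last), and Slfn8 had 3.38, 2.64 and -0.74 (adjusted p = 0.00825 for the last). Trim21 had 2.08 and 2.03 against B16-GFP tumors and -0.05 between the IFNα-expressing types (95% interval -0.30 to 0.21, adjusted p = 0.842). Xaf1 had 2.99 and 2.68 against B16-GFP tumors and -0.31 between the IFNα-expressing types (95% interval -0.60 to -0.01, adjusted p = 0.147).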

How the data were processed

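RNA was extracted from 30 whole tumors, and stranded mRNA libraries were sequenced as single-end reads of 50 bases. The authors checked reads with FastQC 0.11.3 and aligned them with HISAT2 2.0.4 to the mouse genome, which the submitters' processing notes name mm10 and the methods mm11. The deposited values are counts, whole numbers of reads per gene without normalization. The methods name SummerizeOverlaps as the tool that counted reads per gene. The annotation release, overlap mode, strand setting and treatment of reads with several alignments are not given in the sources used here. Of 39676 identifiers, 39495 were matched to symbols in GENCODE M21 (GRCm38), 36719 in the same version, and 9080 genes had no count. All sequences and coordinates come from GENCODE M21 and the GRCm38 genome, not from the authors' alignment. The number of per-sample columns left out was 0.

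Tests were run with edgeR 4.0.16 in R 4.3.3. A gene was kept where its counts averaged 10 or more per tumor, libraries were scaled by TMM, and the 3 types were compared in 1 quasi-likelihood fit of all 30 tumors, with Benjamini-Hochberg adjustment over the 15926 genes tested and a threshold of 0.05. Standard errors and 95% intervals came from the size of the fold change and the F statistic. Log2 CPM took a prior count of 2, so it understates changes of low genes. The total count per tumor had a median of 16712970.5. Ratios and correlations were tested by two-sided permutation with 100000 resamples (Python 3.11.15, numpy 2.4.6, scipy 1.17.1), in families of 3 ratios and 37 relations. Of 43 relations planned, 6 rest on a gene not analysed here. Tested on simulated data with genes changed in B16-IFNA4 tumors alone, in the comparison of B16-IFNA4 with B16-GFP tumors with 15926 genes tested, the fit recovered 96 of 100 genes changed by 1 on the log2 scale and 100 of 100 changed by 2, and called 9 unchanged genes. In the comparison of B16-IFNA9 with B16-GFP tumors, where no gene was changed, it called 0. The simulated counts had the same spread setting for every gene and type, and few genes were changed. The tumors differ in both respects, so these counts do not measure the error rate in the tumors.

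Named genes are Mx1, Mx2, tested genes within 500 kb of them, the 5 genes most like each by the mean r within types, the largest and smallest changes of each list, marker lists included, in B16-IFNA4 against B16-GFP tumors, Ifnar1, Ifnar2, Irf7, Irf9, Usp18 and the transgenes; other names (Oasl1, Irf1, the other dynamin-family genes, Ifit3 and Tyr) were chosen after their values were seen. Some genes that the rule takes are left out of the text. The members, lists and alternatives were chosen with earlier results of these data known. Lists are described by counts and medians, with no test of a set. Alternatives were DESeq2 size factors, library totals, DESeq2 1.42.0, edgeR's filterByExpr or no filter, only the 20 tumors compared, a replicate block, a prior count of 0.5, and each tumor left out in turn.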

Additional observations from a re-analysis of the deposited data

Results flagged for a closer look

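Among 26 groups of 10 values examined for a tumor far from the others, 2 were found, where chance alone would give 1.3 (about 1 in 20 groups). Both were the lowest value of B16-GFP tumor 7. Mx1 had a log2 CPM of 2.278 there, with a gap to the nearest tumor of 0.509 of the range of the type, and Irf9 had 4.561 with a gap of 0.583 of the range, both above Dixon's critical value for 10 samples. Mx2 was also lowest in that tumor, at 2.68 CPM, without passing that value. The tumor had the lowest total count, 14598517, and summed leukocyte markers of 158 CPM and melanocyte markers of 22850 CPM, the lowest and the highest of its type, and their part in these values was not tested.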

How the results depend on the processing

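The log2 fold changes of Mx1 and Mx2 kept their direction and stayed past the threshold in all 222 values from the alternatives. With B16-IFNA4 against B16-GFP tumors they ran from 4.15 to 4.40 for Mx1 and from 3.36 to 3.61 for Mx2, with B16-IFNA9 against B16-GFP tumors from 2.92 to 3.18 and 2.35 to 2.60, and with B16-IFNA9 against B16-IFNA4 tumors from -1.27 to -1.16 and -1.05 to -0.98; the ends came from leaving out 1 tumor. The highest adjusted p (edgeR or DESeq2) over these was 0.000612, for Mx2 in the last comparison. The ratio of Mx1 to Mx2 kept its calls in all 8 alternatives. The number of genes past the threshold in B16-IFNA9 against B16-IFNA4 tumors was 2833, and 4338 with only the 20 tumors compared, and ran from 2098 to 3797 with 1 tumor left out. Scaling by library totals turned the split in B16-IFNA9 against B16-GFP tumors from 4281 higher and 4595 lower (48.2% higher) to 5052 and 3608 (58.3%), that in B16-IFNA4 against B16-GFP tumors from 4977 and 5435 to 5413 and 4758, and that in B16-IFNA9 against B16-IFNA4 tumors from 59.3% to 68.9% higher, with 2 dynamin-family genes called in B16-IFNA4 tumors in place of 1 and 4 neighbours called in B16-IFNA9 tumors in place of 2. Without B16-GFP tumor 7, 20 listed antiviral genes in place of 13 and 1 neighbour in place of 0 were called in B16-IFNA9 against B16-IFNA4 tumors, and 8 correlations in place of 14, and DESeq2 also called 1 neighbour there. Without the 2 farthest tumors 0 correlations passed, with 8 tumors left in each, and 6 changed sign, to -0.0267 and -0.0561 (Mx1 and Mx2 with the leukocyte score in B16-GFP), 0.104 (Mx1 with the melanocyte score in B16-GFP), -0.214 and -0.142 (Mx1 and Mx2 with Ifna4) and 0.00255 (Mx1 with Ifna9). The cause of these changes was not tested.

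The labels number the tumors of each type from 1 to 10 and say nothing of a shared animal, batch or day. Deviations of same-numbered tumors correlated between -0.267 and 0.302 over 30 pairs (median -0.0543), with 4 over 0.1, so the numbers were not taken to pair the tumors. With the replicate block the log2 fold changes of Mx1 were 4.32, 3.11 and -1.21 and those of Mx2 3.52, 2.51 and -1.02, and 10249, 8626 and 2535 genes passed in the 3 comparisons in place of 10412, 8876 and 2833. The depth, at least 30 counts of Mx2 in every tumor, limits the B16-GFP values most.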
